A study of Homo sapiens and Mus musculus with 20 samples.

Results

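Expression of 10 genes that make, move and commit lactate and pyruvate was followed in 12 RNA-sequencing libraries of IMR90, a human fetal lung fibroblast line: LDHA, LDHB, SLC16A1, SLC16A3, BSG, MPC1, MPC2, PDK1, PDHA1 and PDHB. They were chosen by symbol, as 10 of the 17554 genes that the 3 tables of normalized read counts list between them, and all 10 were listed and tested in each table. The series holds 20 libraries in all, and the 8 from mouse muscle were not used here. The 6 groups of 2 libraries were A485 with its control group Control2, MS-275 with Control3, and Pyruvate with Control6. The labels do not say whether the controls were left untreated or given vehicle. All 12 libraries came from the same wild-type line, so none of the groups represents another donor or tissue. A485 inhibits the catalytic domain of the acetyltransferase p300, which the study treats as a histone lactyltransferase. MS-275 inhibits class I histone deacetylases, which the study treats as delactylases, and pyruvate is the substrate from which lactate is made. The study nevertheless reports less histone lactylation after either inhibitor, with histone acetylation lower after A485 and higher after MS-275. The study's text places pyruvate on senescent IMR90 cells, whereas the labels give no senescence state, dose or treatment time for any of these groups. Nothing in the labels says that the libraries came from separate cultures, so the p-values below measure only the spread between these libraries, which may be technical. In bulk RNA, fewer cells of a type and less RNA per cell cannot be told apart.

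As background, lactate dehydrogenase converts pyruvate to lactate and back, and its subunits LDHA and LDHB assemble into tetramers that lean towards making and towards using lactate. Lactate crosses the plasma membrane through monocarboxylate transporters, of which MCT1 (SLC16A1) has a high affinity for lactate and MCT4 (SLC16A3) is typical of cells that export it, and both reach the surface with basigin (BSG). Pyruvate enters mitochondria through a carrier made of MPC1 and MPC2 and is turned into acetyl-CoA by pyruvate dehydrogenase, whose E1 enzyme consists of PDHA1 and PDHB and is switched off when the kinase PDK1 phosphorylates PDHA1. LDHA, SLC16A3 and PDK1 are classical targets of hypoxia-inducible factors, and in fibroblasts this branch point sets how much glucose carbon leaves the cell as lactate.

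The promoters of LDHA, SLC16A3 and PDK1 are shown because these 3 genes had the lowest log2 fold changes of the 10 after A485 and the highest after MS-275, so they were chosen for how they moved. Each line gives the 250 bases before a RefSeq start of the gene, the one at its canonical transcript, on GRCh38.p14, plus strand: LDHA at chr11:18394313-18394562, SLC16A3 at chr17:82228792-82229041 and PDK1 at chr2:172555840-172556089. Capitals mark ACGTG or GCGTG on either strand, the core letters that hypoxia-inducible factors bind.
LDHA: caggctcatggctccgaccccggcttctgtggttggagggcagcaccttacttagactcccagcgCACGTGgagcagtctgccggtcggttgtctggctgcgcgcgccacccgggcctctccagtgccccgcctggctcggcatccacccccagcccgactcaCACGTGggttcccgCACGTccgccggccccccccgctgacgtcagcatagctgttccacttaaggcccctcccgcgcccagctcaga
SLC16A3: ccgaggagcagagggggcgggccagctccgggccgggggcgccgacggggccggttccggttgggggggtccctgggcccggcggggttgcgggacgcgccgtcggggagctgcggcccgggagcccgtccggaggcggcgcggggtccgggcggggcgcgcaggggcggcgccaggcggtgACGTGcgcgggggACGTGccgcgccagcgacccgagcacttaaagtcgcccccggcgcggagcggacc
PDK1: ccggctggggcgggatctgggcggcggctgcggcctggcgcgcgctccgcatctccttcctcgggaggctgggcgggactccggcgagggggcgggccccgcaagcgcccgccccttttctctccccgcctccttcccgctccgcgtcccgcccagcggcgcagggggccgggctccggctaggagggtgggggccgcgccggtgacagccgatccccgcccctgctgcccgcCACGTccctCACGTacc
The LDHA window held 5 matches, of which 4 were the overlapping pairs within 2 copies of CACGTG, a palindrome that contains ACGTG on both strands. The windows of SLC16A3 and PDK1 each held 2 matches. Of the other members, BSG and PDHB held 6 matches each, PDHA1 held 3, MPC1 held 2 and LDHB and MPC2 held 0, while SLC16A1 had no entry. In all, 7 of the 9 members with a window held either motif, beside 43.2% of 35116 windows of the same length, and 3 held CACGTG, beside 6.34%. Each member was counted by 1 window, at its canonical transcript, although 18 windows were listed for these members. The further windows of BSG, MPC2 and PDK1 held 0 matches, that of LDHA held 1 and those of SLC16A3 held 0 to 3. The 35116 windows may include several starts per gene, so these shares may not be of like sets. The matches describe letters in these windows and were not tested against expression.

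The genes lie on 9 chromosomes in the GENCODE 44 annotation of GRCh38, the build that the study's reads were aligned to. The lactate dehydrogenase genes are LDHA at chr11:18394560-18408425 and LDHB at chr12:21635342-21757857. The transporter genes are SLC16A1 at chr1:112911847-112957593 and SLC16A3 at chr17:82217934-82261129, with BSG at chr19:571277-583494. MPC1 lies at chr6:166364919-166383013 and MPC2 at chr1:167916675-167937072. PDK1 lies at chr2:172555373-172608669, PDHA1 at chrX:19343893-19361718 and PDHB at chr3:58427630-58433857. Because the strand setting of the authors' counting is not given in the sources used here, reads of SLC16A1, SLC16A3, BSG, MPC2, PDK1, PDHA1 and PDHB cannot be separated from those of genes whose exons overlap them on the other strand, such as CSNK1D at SLC16A3. LDHA has 6 annotated pseudogenes named after it and LDHB has 3, and reads shared with such near-identical copies make their counts uncertain.

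The 12 libraries held between 24179065 and 46971227 reads in the listed genes, of which mitochondrial genes took 2.77% to 6.90%. The fibroblast label was checked on 12 fibroblast markers, all of which were listed in every table, while PECAM1 and CDH5 (endothelium), CDH1 (epithelium) and PTPRC, CD68 and CD3E (immune cells) were listed in none. Other markers of these cell types were listed. KRT8, KRT18 and CLDN4 (epithelium) and TEK and VWF (endothelium) were in every table. EPCAM and KRT19 (epithelium) were in the A485 and MS-275 tables, and LYZ (immune cells) was in the A485 table. The Control6 libraries stood apart from the others in base composition. Set against the mean of Control2 and Control3, genes in the lowest GC decile were lower than those in the highest by a median log2 difference of -3.29 and -3.23 in the Control6 libraries, against -0.65 in both Pyruvate libraries and -0.70 to 0.61 in the other 8.

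To set levels between genes, the counts were scaled to the library total over the 11994 genes common to the 3 tables (RPM) and divided by the length of the canonical transcript (RPKM). LDHA was the most abundant of the 10 in 5 groups, at 378 ± 36.9 RPKM (SD, n = 2) in Control2, 407 ± 207 in Control3 and 1202 ± 56.2 in Control6. In A485 the order of the first 2 was turned, with BSG at 344 ± 13.9 RPKM and LDHA at 274.7 ± 84.7, values whose spreads overlapped. LDHB and PDK1 were the least abundant members in every group, at 0.679 to 8.69 and 1.11 to 8.76 RPKM, and PDK1 has by far the longest transcript of the 10, at 14072 bases. In Control2, LDHA was therefore 71.5 and 82.0 times as abundant as LDHB per length in the 2 libraries. The middle members, SLC16A1, MPC1, MPC2, PDHA1 and PDHB, lay between 16.1 and 41.5 RPKM in Control2, where MPC1 at 19.8 ± 2.78, PDHA1 at 18.3 ± 2.71 and MPC2 at 16.1 ± 1.82 did not differ beyond their spread.

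**Figure D1:**
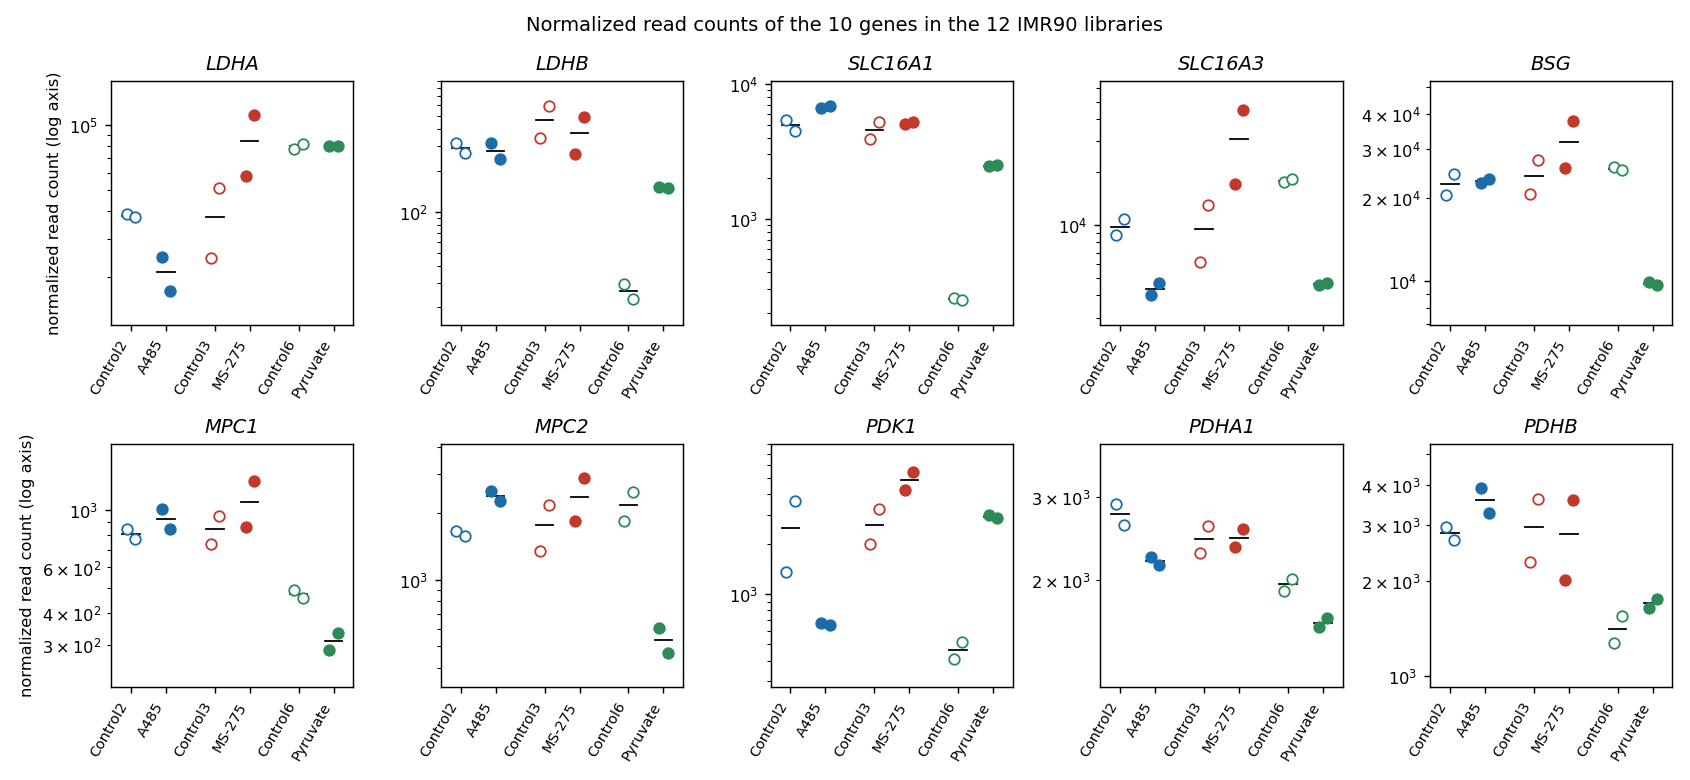
Normalized read counts of the 10 genes in each of the 12 libraries on log axes, with open points for control libraries, filled points for treated libraries and a short bar at the mean of each pair. The filled A485 points of LDHA, SLC16A3 and PDK1 lie below both Control2 points, the MS-275 points of the same genes lie above both Control3 points, and the Control6 and Pyruvate points of SLC16A1 and PDK1 are the farthest apart.

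The A485 comparison asked what inhibition of p300 does to these genes. SLC16A3, the lactate exporter MCT4, fell 2.25-fold, and the other members did not pass the test. LDHA and PDK1 were lower in both A485 libraries than in both controls without passing it. The remaining members lay between -0.33 and 0.57 on the log2 scale, with MPC2, SLC16A1 and PDHB above 0 and PDHA1 below, although PDHA1 was at 0.06 when the libraries were scaled to equal totals. A gene was called at a Benjamini-Hochberg adjusted p under 0.05 in limma with an absolute log2 fold change above 1, and said to pass at the adjusted p alone. By this rule 1 of the 10 members was called, beside 10.4% of the 16084 genes tested, so the count is that of the background, and the same member was the 1 that passed, beside 12.6%. An unadjusted p under 0.05 was found for 5 members, beside 30.8%. The background was 532 genes called higher (3.31%) and 1135 lower (7.06%), and with equal totals, which moved the median of all genes to 0.40, it was 1669 higher and 915 lower.

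SLC16A3 measured 8775 and 10827 normalized counts in Control2 and 4012 and 4711 in A485. Both treated libraries lay well below both controls, and the log2 fold change was -1.16 ± 0.19 (SE, n = 2 against 2, limma adjusted p = 0.0168). The call was lost without the intensity trend in limma (adjusted p = 0.0772), when the spread was estimated over all 12 libraries (0.115), with quantile normalization (log2 fold change -0.92) or equal library totals (-0.77) and without replicate 2 of Control2 (0.0828) or replicate 1 (0.161) or 2 (0.108) of A485, while the log2 fold change of SLC16A3 stayed below 0 in each.

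LDHA measured 38844 and 37640.2 normalized counts in Control2 and 24674 and 17241 in A485. The groups did not overlap, and the log2 fold change was -0.89 with a 95% interval of -1.46 to -0.32 (limma adjusted p = 0.0598). With a smooth trend in GC content and transcript length removed, LDHA was at -0.86 and passed (limma adjusted p = 0.0365). LDHB, the subunit that leans towards using lactate, measured 316 and 267 against 317 and 242, with a log2 fold change of -0.07. PDK1 measured 1366 and 3642 in Control2 and 673 and 656 in A485. The 2 treated libraries agreed closely while the controls lay far apart, and the log2 fold change of PDK1 was -1.74 with an interval of -2.83 to -0.66 (limma adjusted p = 0.055). Without replicate 1 of Control2 it was -2.45 (adjusted p = 0.0274) and without replicate 2 it was -1.04 (adjusted p = 0.0917). PDK1 was called by edgeR (-1.88, adjusted p = 0.0402) and DESeq2 (-1.91, adjusted p = 0.000213) on the recovered reads, with a pseudocount of 10 (adjusted p = 0.0497), in the fit over 12 libraries (0.0198), with quantile normalization (0.0476) and with equal totals (-1.35, adjusted p = 0.0456), and in the last 3 of these it was the called member in place of SLC16A3.

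Among the transport genes, SLC16A1 measured 5367 and 4486 in Control2 and 6684 and 6854 in A485, a log2 fold change of 0.46 (limma adjusted p = 0.13). BSG measured 20381 and 24310.1 against 22678 and 23306, with overlapping groups. The carrier gene MPC2 measured 1654 and 1568 against 2512 and 2276, so both treated libraries were higher (0.57, adjusted p = 0.0785). MPC2 passed with the GC and length trend removed (0.63, limma adjusted p = 0.0424). Its partner MPC1, at 845 and 771 against 1009.7 and 849, was also higher in both, by a log2 fold change of 0.20. The E1 subunits stood on opposite sides of 0. PDHA1 measured 2901 and 2616 against 2238 and 2148 (-0.33), and PDHB measured 2953 and 2680.4 against 3928 and 3269 (0.35). Over the 10 members, 8 had groups that did not overlap, beside 61% of all genes, and the median log2 fold change was -0.01, beside 0.01.

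The rest of the pathway was described with lists of related genes. None of the 3 other subunits of the dehydrogenase complex (DLAT, DLD, PDHX) passed after A485. Of its 6 other kinases and phosphatases, 1 was called: PDK3, a further kinase of the complex, rose from 183 and 214 to 597 and 531 normalized counts (1.503, limma adjusted p = 0.0208). EMB, the chaperone that can replace basigin for some transporters, rose from 411 and 317 to 1126 and 1061 (1.60, adjusted p = 0.0125) as 1 of 2 listed of 6 further carriers and chaperones. Of 10 tested of 14 other enzymes that make or use pyruvate or lactate, HAGH, which releases D-lactate from a glutathione ester, rose from 1090.5 and 1170.1 to 2649 and 3099 (1.342, adjusted p = 0.00943). Another 2 of these enzymes passed in the lower direction and were named after their values were seen: PKM, which makes pyruvate in glycolysis (-0.997, adjusted p = 0.043), and ME1, which makes it from malate (-0.97, adjusted p = 0.0326).

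Beside these results, 10 of the 12 fibroblast markers were called lower in A485, with a list median of -2.07, and their summed share of all normalized counts was 4.31% to 4.68% in Control2 and 1.67% to 1.85% in A485. The 5 listed epithelial markers held 0.00653% to 0.00661% and 0.00397% to 0.00460%, with 1 called higher (EPCAM) and 2 called lower. Of 5 endothelial markers 3 were listed, and both that were tested were called lower (TEK and VWF, the latter at 0 in both A485 libraries). The part of these markers in the changes of the 10 genes was not tested.

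The MS-275 comparison asked what inhibition of class I deacetylases does to these genes. SLC16A3, LDHA and PDK1 had higher values in both MS-275 libraries than in both Control3 libraries, by 1.68-fold to 3.46-fold within replicate numbers, but none of the 10 members passed the test. The other 7 had overlapping groups. No gene of the 15883 tested was called by limma (0%), 1730 (10.9%) had an unadjusted p under 0.05, and 0 of the 10 members did, with no count model run for this experiment. The 2 libraries within each group differed strongly, by a median absolute log2 difference over the genes tested of 0.58 in Control3 and 0.61 in MS-275. Replicate 2 was the higher of the pair for 10 of 10 members in Control3 and for 10 of 10 in MS-275. The share of all genes with replicate 2 the higher was not counted.

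SLC16A3 measured 6178 and 12959 normalized counts in Control3 and 17126 and 44868 in MS-275. Within replicate numbers the treated library was 2.77-fold and 3.46-fold higher. Over the groups the log2 fold change of SLC16A3 was 1.63 with an interval of -0.01 to 3.27 (limma adjusted p = 0.46). LDHA measured 24328 and 51223 against 57928 and 111103, which was 2.38-fold and 2.17-fold within numbers. The lower MS-275 library of LDHA lay just above the higher control, and the log2 fold change of 1.18 had an interval of -0.21 to 2.58 (adjusted p = 0.553). PDK1 measured 2004 and 3241 against 4260.4 and 5431, at 2.13-fold and 1.68-fold within numbers and 0.92 over the groups (interval -0.07 to 1.91, adjusted p = 0.502). For each of these 3 genes the treated library was the higher within both numbers, and replicate 2 was the higher library in both groups.

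LDHB was lower within both numbers, at 348 and 591 in Control3 and 262 and 489 in MS-275 (-0.40 and -0.27). The remaining transport genes were BSG, at 20564 and 27314 against 25588 and 37806 (0.32 and 0.47 within numbers), and SLC16A1, at 3913 and 5209.8 against 5001 and 5243 (0.35 and 0.01). Both subunits of the mitochondrial carrier were higher within each number, MPC1 at 739.9 and 949 against 863 and 1294, and MPC2 at 1348 and 2182 against 1833 and 2891. The E1 subunits lay nearest to 0. PDHA1 measured 2282 and 2598 against 2342 and 2563 (0.01, interval -0.77 to 0.79), and PDHB measured 2284 and 3630.2 against 2010.2 and 3594 (-0.10, interval -1.27 to 1.07). Counting the 10 members, 9 moved in the same direction within both numbers, beside 79% of all genes, with 7 higher in both, beside 38.6%, and 2 lower in both, beside 40.4%. Groups did not overlap for 3 of the 10, beside 38.9%, and the median log2 fold change was 0.36, beside -0.01.

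**Figure D2:**
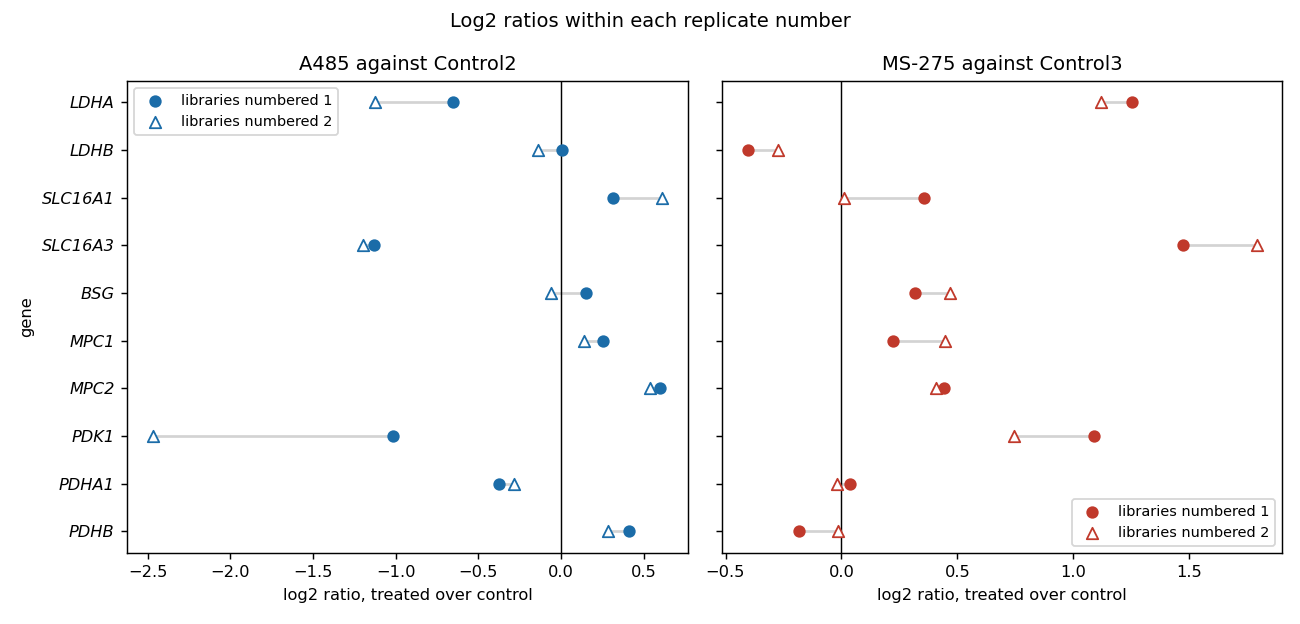
Log2 ratios of treated over control library within replicate number 1 (filled circles) and number 2 (open triangles) for the 10 genes in the A485 and MS-275 comparisons. After MS-275 the circles and triangles of SLC16A3, LDHA and PDK1 lie between 0.74 and 1.79, while after A485 those of PDK1 lie at -1.02 and -2.47.

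None of the other pathway genes was called by limma after MS-275. The smallest p among the kinases and phosphatases belonged to PDK3, at 226 and 215 in Control3 and 623 and 450 in MS-275 (1.26, adjusted p = 0.329). The 12 fibroblast markers held 2.14% to 4.58% of the normalized counts in Control3 and 1.67% to 4.05% in MS-275, with 0 called, as for the epithelial and endothelial markers.

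The pyruvate comparison asked how adding pyruvate changes these genes. SLC16A1 (MCT1), PDK1 and LDHB rose 9.72-fold, 6.36-fold and 5.71-fold, and MPC2, SLC16A3 (MCT4) and BSG fell 4.07-fold, 3.84-fold and 2.59-fold. MPC1 and PDHA1 fell and PDHB rose by less than 2-fold, with PDHA1 at 0.04 when the libraries were scaled to equal totals and PDHB at -0.43 once the trend described below was removed. As deposited LDHA lay within 0.11 of 0 on the log2 scale, but it was at -1.28 with that trend removed. Thus 6 of the 10 members were called, beside 54.1% of the 12013 genes tested, and 9 passed, beside 80.9%, so neither count stands apart from the background. Of the 6 called members 3 were higher and 3 lower, and of all genes 3726 were called higher (31%) and 2777 lower (23.1%), a split that was 4402 and 1741 with equal totals (median of all genes 0.30) and 3143 and 3228 with quantile normalization (median -0.17). Groups did not overlap for 9 members, beside 90.5% of all genes. Much of the change in this comparison followed base composition: over 11888 genes the Spearman correlation of the log2 fold change with transcript GC content was -0.716, compared with -0.112 for A485 and -0.017 for MS-275. Across all genes the median log2 fold change was 1.72 in the lowest GC decile and -1.21 in the highest. The part of this trend in each member's change was not tested, so every value is given with the median of genes within 1 percentage point of the same GC content and with the value after a smooth trend in GC content and length was removed.

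The transporters moved in opposite directions. SLC16A1 measured 259 and 251 normalized counts in Control6 and 2457 and 2500.3 in Pyruvate (3.28, limma adjusted p = 3.18e-10). Its transcript has 40.3% GC, and 940 genes of like GC content had a median of 1.87, so SLC16A1 stood 1.40 above them, and with the trend removed its log2 fold change was 1.51. SLC16A3 measured 17516 and 18198 against 4568 and 4734 (-1.94, adjusted p = 2.08e-10). At 64.7% GC it lay below a like-GC median of -1.20 by a difference of -0.74, and with the trend removed it was -0.71, under the size required for a call. BSG measured 25800.4 and 25126 against 9912 and 9716 (-1.38, adjusted p = 1.1e-09), close to the median of -1.14 for its 62.5% GC, and was -0.17 with the trend removed.

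Among the dehydrogenase genes, LDHA measured 77153 and 81882 in Control6 and 79402 and 79856 in Pyruvate (0.00, interval -0.11 to 0.11). Genes of its GC content, 41.8%, had a median of 1.62, which left a difference of -1.62 for LDHA, and with the trend removed its sign turned to -1.28 (adjusted p = 5.9e-11). LDHB measured 29.5 and 22.8 against 150.4 and 148 (2.48, adjusted p = 3.36e-05), above a like-GC median of 1.22, and was 1.61 with the trend removed.

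Both subunits of the mitochondrial carrier fell, while genes of their GC content had medians above 0. MPC2 measured 1848 and 2492 in Control6 and 602 and 464 in Pyruvate (-2.02, adjusted p = 2.33e-07), whereas genes near its 42.6% GC had a median of 1.48, a difference of -3.50. MPC1 measured 491 and 457 against 288 and 335 (-0.61, adjusted p = 0.0026), beside a like-GC median of 1.71. With the trend removed both lay lower still, MPC2 at -3.16 and MPC1 at -1.92.

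PDK1 measured 409 and 514 in Control6 and 2993 and 2874 in Pyruvate (2.68, adjusted p = 2.6e-09). Its 39.5% GC is the lowest of the 10, the like-GC median was 1.85, and PDK1 was 0.61 with the trend removed, no longer called. PDHA1 measured 1896 and 2011 against 1583 and 1657 (-0.27, adjusted p = 0.00936), and PDHB measured 1267 and 1544 against 1642 and 1746 (0.28, adjusted p = 0.0285). Genes of like GC content had medians of 0.46 and 0.95, and with the trend removed PDHA1 was -0.75 and PDHB turned to -0.43. With the trend removed 2 members were called higher (SLC16A1, LDHB) and 3 lower (LDHA, MPC1, MPC2), beside 29% of all genes, and all 10 passed, beside 66.4%.

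**Figure D3:**
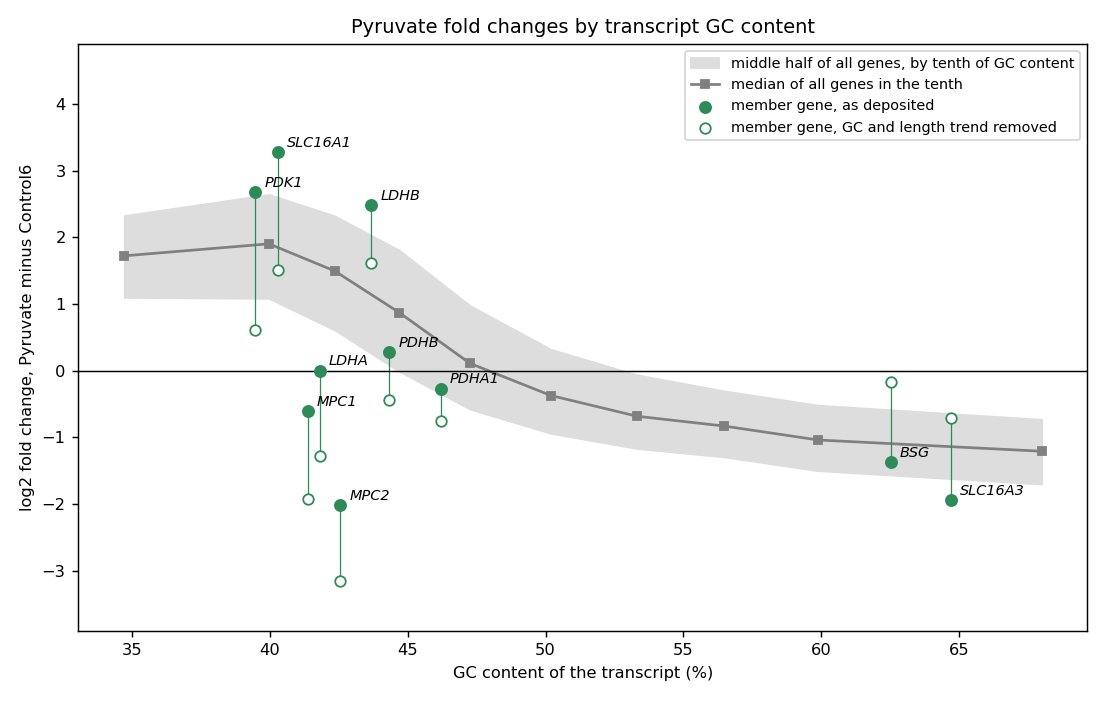
Log2 fold change of Pyruvate against Control6 by transcript GC content, with the grey line at the median of each decile of all genes, the band over their interquartile range, filled points for the 10 genes as deposited and open points after the GC and length trend was removed. SLC16A1 and PDK1 lie at low GC where the median of all genes is near 1.9, SLC16A3 and BSG lie at high GC where it is near -1.2, and as deposited LDHA, MPC1, MPC2 and SLC16A3 lie below the band and SLC16A1, PDK1 and LDHB above it.

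The controls themselves differed for some members. SLC16A1 was at 8.64 ± 0.167 RPM (SD, n = 2) in Control6, compared with 109.6 ± 22.0 in Control2 and 110.0 ± 22.6 in Control3, and the Pyruvate libraries were at 104 ± 1.11. LDHB likewise was at 0.885 ± 0.156 RPM in Control6, 6.48 ± 1.25 in Control2, 11.3 ± 4.21 in Control3 and 6.26 ± 0.0895 in Pyruvate. For both genes the Control6 libraries were thus the ones that stood apart, although the tables were normalized separately and these levels were not tested across them. SLC16A3 showed the same arrangement from above, at 605 ± 19.2 in Control6 against 216 ± 15.8 in Control2, 231 ± 117 in Control3 and 195 ± 4.55 in Pyruvate. This arrangement did not hold for every member. PDK1 was at 15.6 RPM in Control6 and 123 in Pyruvate, with Control2 (54.1) and Control3 (63.3) between them. LDHA was higher in both Control6 (2694) and Pyruvate (3346) than in Control2 (847) and Control3 (912).

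In the related lists, all 3 other complex subunits passed higher and 2 were called: DLD rose from 285.8 and 185.5 to 1019 and 951 (2.09, limma adjusted p = 8.26e-07), and DLAT from 639 and 608 to 1129.5 and 1395 (1.009, adjusted p = 9.8e-06). With the trend removed DLD was 0.33 and DLAT was -0.78. Of the 6 kinases and phosphatases 2 were called higher and 1 lower. PDP1, a phosphatase that switches the complex on, rose from 90.4 and 126 to 1093 and 1202 (3.41, adjusted p = 1.11e-08), PDK3 rose by 1.09 (adjusted p = 0.0391), and PDK2 fell from 1086 and 1087 to 204 and 252 (-2.25, adjusted p = 4.23e-08). With the trend removed PDP1 was 1.56, PDK3 0.63 and PDK2 -1.38. Of the 2 listed carriers and chaperones SLC16A7 (MCT2) was called, at 1.47 (adjusted p = 0.00328) and -0.11 with the trend removed. Of 8 tested enzymes 3 were called higher and 4 lower, led by GLO1 (3.24, adjusted p = 2.06e-10), HAGH (-2.82, 2.01e-09), PKM (-1.13, 1.57e-09) and ME2 (2.25, 2.68e-08). Of these 4, GLO1 and HAGH kept a log2 fold change beyond 1 with the trend removed (1.72 and -1.85), and PKM and ME2 did not (-0.17 and 0.18). The fibroblast markers held 4.03% to 4.31% of the counts in Control6 and 4.29% to 4.33% in Pyruvate, with 4 of 12 called higher and 1 lower, or 1 higher and 1 lower with the trend removed. Of the endothelial markers TEK was called higher and VWF lower, and 0 of 3 tested epithelial markers were called. The part of these markers in the changes of the 10 genes was not tested.

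**Figure D4:**
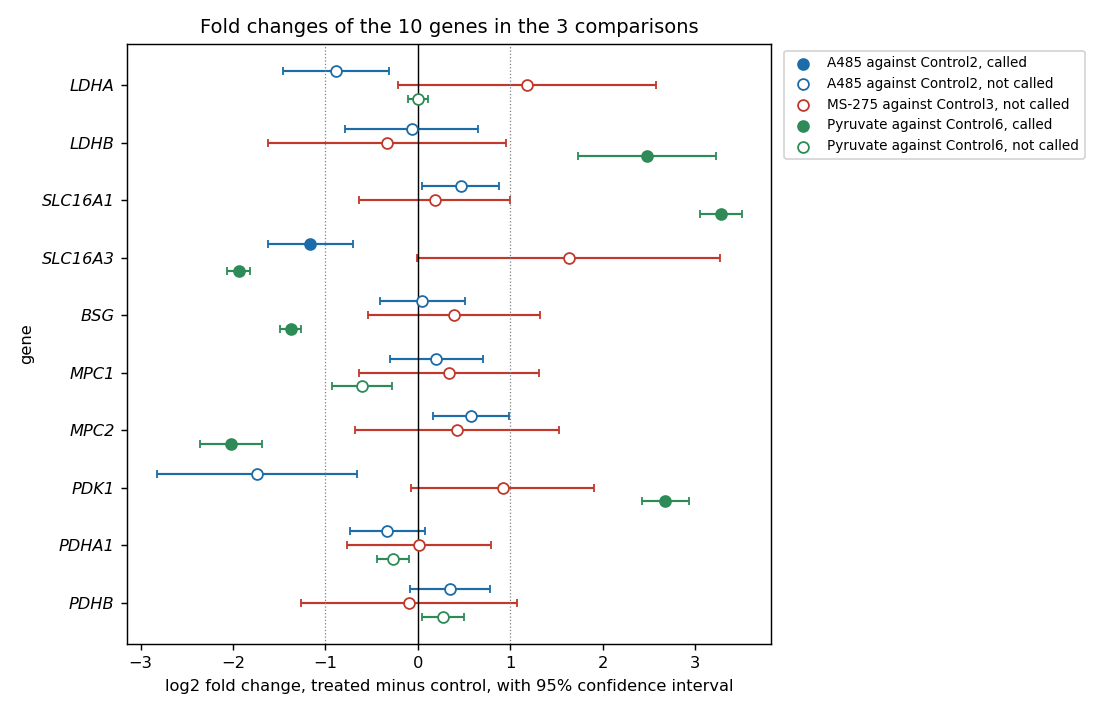
Log2 fold changes of the 10 genes with 95% confidence intervals in the 3 comparisons, with filled points for called genes and open points for the others. For 9 of the 10 genes the MS-275 interval is the widest of the 3, the exception being PDK1, and all MS-275 intervals cross 0, the only filled A485 point is SLC16A3 at -1.16, and 6 Pyruvate points are filled.

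The fold changes of the 3 comparisons were then set against each other, each difference tested in limma over the 8 libraries concerned. Between A485 and MS-275, 0 of 10 members passed, beside 3.81% of 15130 genes, and 3 had an unadjusted p under 0.05, beside 17.6%. These 3 had the largest differences of the 10: -2.80 for SLC16A3 (adjusted p = 0.0885), -2.66 for PDK1 (0.0816) and -2.07 for LDHA (0.145). Between A485 and pyruvate 8 members differed, beside 65.4% of 11993 genes, with PDHA1 (-0.06) and PDHB (0.07) as the exceptions. PDK1 showed the widest gap, at -4.42 (adjusted p = 0.000166), followed by SLC16A1 at -2.81 and MPC2 at 2.59. Between MS-275 and pyruvate 6 members differed, beside 41.1% of 12005 genes: SLC16A3 (3.57, adjusted p = 0.00877), SLC16A1, LDHB, MPC2, BSG and PDK1. LDHA, at 1.18 (adjusted p = 0.155), MPC1, PDHA1 and PDHB did not pass. With the GC and length trend removed, 7 members differed between A485 and pyruvate, beside 52.3% of all genes, and 8 between MS-275 and pyruvate, beside 34.8%, and the differences of LDHA, SLC16A3 and PDHA1 between A485 and pyruvate and those of PDK1 and PDHB between MS-275 and pyruvate changed sign.

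Ratios between paired genes within a library need no scaling between libraries, and with 2 libraries a side the exact two-sided permutation test cannot give a p below 0.333, the value of all 9 ratios. The log2 ratio of LDHA to LDHB was 6.94 and 7.13 in Control2 and 6.28 and 6.15 in A485. After MS-275 it was higher, at 7.78 and 7.82 against 6.12 and 6.43 in Control3. After pyruvate it was 9.03 and 9.07 against 11.31 and 11.75. Groups did not overlap in any of the 3 comparisons.

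The log2 ratio of the exporter SLC16A3 to SLC16A1 was 0.71 and 1.27 in Control2 and -0.74 and -0.54 in A485, so that SLC16A1 held more reads than SLC16A3 in A485. It was 0.66 and 1.31 in Control3 and 1.78 and 3.10 in MS-275. In the pyruvate experiment it was 6.07 and 6.18 in Control6 and 0.89 and 0.92 in Pyruvate, a difference of -5.22, with the GC contents of the pair far apart. The ratio of the kinase PDK1 to its substrate PDHA1 was -1.09 and 0.48 in Control2 and -1.73 and -1.71 in A485. It was -0.19 and 0.32 in Control3 and 0.86 and 1.08 in MS-275. In the pyruvate experiment the same ratio was -2.21 and -1.96 in Control6 and 0.92 and 0.79 in Pyruvate. The GC contents of this pair differ as well, and genes of like GC content had median log2 fold changes of 1.85 for PDK1 and 0.46 for PDHA1. With the GC and length trend removed, PDK1 was at 0.61 and PDHA1 at -0.75, so the ratio as deposited includes that trend. The 3 ratios thus shared a direction in each inhibitor comparison, below the control after A485 and above it after MS-275. Their numerators are the 3 genes with the lowest log2 fold changes after A485 and the highest after MS-275. The shared direction therefore follows from those fold changes and is not a separate result.

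**Figure D5:**
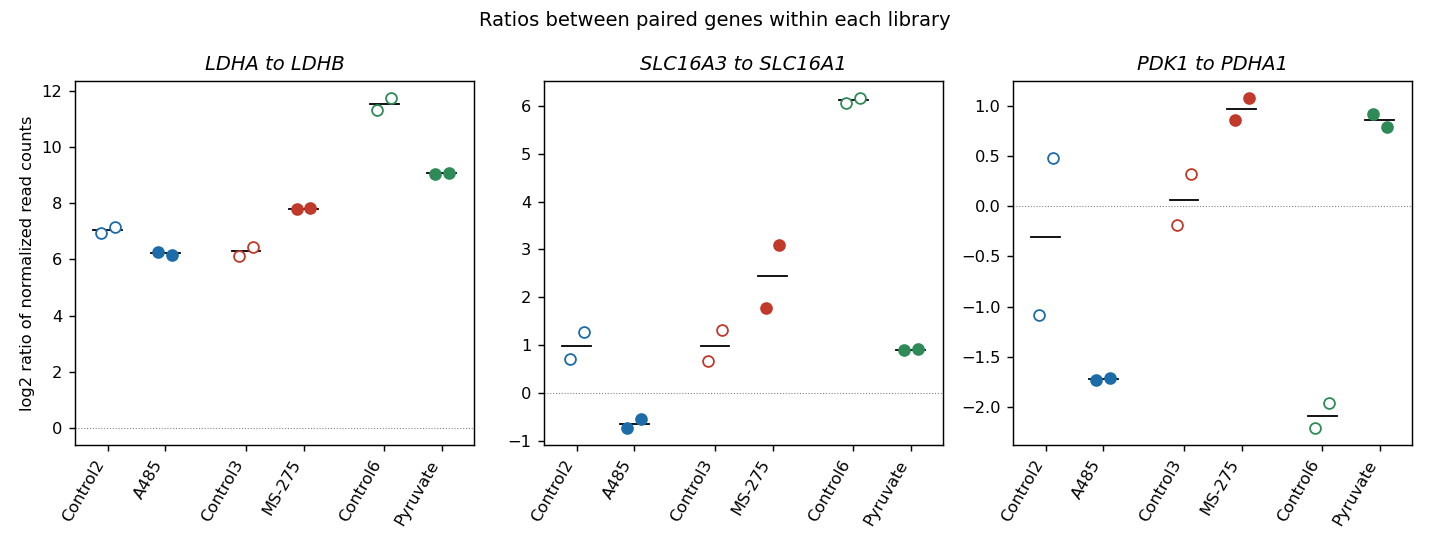
Log2 ratios of LDHA to LDHB, SLC16A3 to SLC16A1 and PDK1 to PDHA1 in each library, with open points for controls and filled points for treated libraries. In every panel the A485 points lie below the Control2 points and the MS-275 points above the Control3 points, while after pyruvate the first 2 ratios lie lower and the ratio of PDK1 to PDHA1 higher.

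Across the 12 libraries, centred on the mean of each experiment, the genes most like LDHA among 9769 were IFT20 (Pearson r = 0.97), TXN (0.94), CDYL (0.94), DAD1 (0.94) and BNIP3 (0.93). Of the other members SLC16A3 ranked highest, at r = 0.74 and place 217, followed by PDHA1 at 0.56 and PDK1 at 0.49. The genes most like PDK1 were DLL4 (0.98), PMAIP1 (0.97), VAT1L (0.97), PCDH18 (0.96) and CHN1 (0.96), and its closest ranked member was SLC16A1 at 0.69. These values are descriptions over libraries that share 3 experiments and, in 1 of them, the trend in base composition.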

How the data were processed

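Total RNA of the 12 IMR90 libraries was sequenced and processed by the authors with Trim Galore (0.6.10), HISAT2 (2.2.1) on hg38, SAMtools (1.7), featureCounts (2.0.6) and DESeq2 (1.34.0), per the study's methods and the submitters' processing notes. The gene annotation and strand setting are not given in the sources used here. The deposited signal is a normalized count, the reads of a gene divided by 1 size factor per library, made separately for each experiment. Every deposited value was a whole multiple of 1 number per library (within 0.01), which gave reads per library. Although the multiples held in all 12 libraries, a check of units accepted them for count models only in the A485 experiment. The MS-275 and pyruvate calls therefore rest on limma alone.

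Genes whose values averaged 10 or more in the 4 libraries compared entered limma (3.58.1, R 4.3.3, eBayes with trend) as log2(value + 1), and fold changes are on that scale, which understates low genes. Two-sided p-values were adjusted by the Benjamini-Hochberg method across the whole table. Calling a gene required both an adjusted p under 0.05 and a log2 fold change beyond 1 in size. Effects were compared by limma contrasts over 8 libraries, and ratios had an exact permutation test. The fits were tested on simulated data. GC content and length of the canonical transcript (GENCODE 44) were known for 98.4%, 98.4% and 99.0% of the listed genes, and their trend was removed with splines of 5 degrees of freedom as an alternative. Other alternatives were the pseudocount, the filter, the scaling, the limma trend, a fit over 12 libraries, the fold minimum, a replicate block, edgeR (4.0.16) and DESeq2 (1.42.0) on recovered reads and leaving out each library.

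All 10 genes are named in every comparison. Of each related list, the called genes are named, at most the 4 with the smallest adjusted p, or, where none was called, at most the 2 with the smallest p. The most alike genes are the 5 with the highest Pearson correlation with LDHA or PDK1 over genes with a mean of at least 100 in each experiment. The members and lists were chosen with earlier results of these data known. Promoter windows are from RefSeq (GRCh38.p14).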

Additional observations from a re-analysis of the deposited data

How the results depend on the processing

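Of the 10 genes, 1 was called for A485 against Control2, and 2 were called with a pseudocount of 10, edgeR, DESeq2, a replicate block, or the block with the GC and length trend removed, against 0 without the limma trend and 0 to 2 with single libraries left out. Over all genes A485 had 1667 calls, 2584 with equal totals, 840 without the trend, 2486 with the block, 2325 in DESeq2 and 117 to 844 with a library left out. The replicate numbers share only a number: same-numbered deviations correlated at 0.32, 0.73 and 0.002 in the A485, MS-275 and pyruvate experiments. For MS-275 against Control3 the replicate block, alone or with the trend removed, called 2 members (LDHA and SLC16A3) instead of 0 and 2183 or 2014 genes, with 5 members passing (also PDK1, BSG and MPC2, in the block alone), beside 39.3% of all genes, and the shared fit called 487. Single libraries left out gave 0 members and 0 to 419 genes. For pyruvate against Control6, 6 members were called in every fit at this fold minimum except with the trend removed (5, and 3443 genes instead of 6503; 3474 with the block), and leaving out single libraries gave 6 throughout. The A485 and MS-275 effects differed for 0 members, 3 with the block, 1 with the trend removed and 0 to 1 with a library left out (PDK1 without replicate 1 of Control2, SLC16A3 without replicate 1 of MS-275). The other effect differences covered 6 to 8 members (A485 against pyruvate) and 5 to 8 (MS-275 against pyruvate) with a library left out.

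Signs turned as follows. After A485, LDHB (-0.07) was 0.018 with quantile normalization, 0.33 with equal totals and 0.052 with the trend removed, with or without the block, and PDHA1 was 0.064 with equal totals. After MS-275, PDHA1 was -0.13 with equal totals and -0.037 with the trend removed, with or without the block. After pyruvate, LDHA was -1.28 and PDHB -0.43 with the trend removed, with or without the block, and PDHA1 was 0.041 with equal totals. Between A485 and MS-275, BSG was 0.44 with quantile normalization and 0.19, MPC1 0.40 and PDHA1 0.20 with equal totals. Between A485 and pyruvate, LDHA was 0.42, SLC16A3 -0.37 and PDHA1 0.57 with the trend removed, and PDHA1 0.023 with equal totals. Between MS-275 and pyruvate, PDK1 was 0.20 and PDHB 0.28 with the trend removed, and PDHA1 -0.17 with equal totals. The cause was not tested. With single libraries left out the ranges that crossed 0 were, after A485, LDHB (-0.26 to 0.13) and BSG (-0.081 to 0.17), after MS-275, LDHB (-0.79 to 0.11), SLC16A1 (-0.025 to 0.39), PDHA1 (-0.085 to 0.10) and PDHB (-0.52 to 0.32), and after pyruvate, LDHA (-0.040 to 0.046). In the differences they were LDHB (-0.18 to 0.72), MPC1 (-0.43 to 0.16) and MPC2 (-0.20 to 0.49) between A485 and MS-275, PDHA1 (-0.13 to 0.015) and PDHB (-0.069 to 0.22) between A485 and pyruvate, and PDHB (-0.79 to 0.044) between MS-275 and pyruvate. Of 620 single-gene values under the other alternatives, 553 kept direction and side of the threshold, 31 crossed into it, 12 out of it and 24 changed sign. The 9 ratios kept their direction under the alternatives added for them after seeing the data.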

Other observations

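Other targets of hypoxia-inducible factors, a list of 21 genes without the 10 described above, were read in the same way, and the list was chosen with earlier results known. After A485, 5 of 19 tested were called lower, beside 7.06% of all genes, and 0 higher by limma, beside 3.31%. The list median was -0.53, beside 0.01 for all genes, with 14 of the 19 below 0 and 5 above. Those above included ANKRD37 (1.26, limma adjusted p = 0.115) and MXI1 (1.04, adjusted p = 0.107), neither of which was called. VEGFA, the angiogenic growth factor, fell from 3677 and 4988 normalized counts to 757 and 755 (-2.50, adjusted p = 0.0026). ADM, which encodes the peptide adrenomedullin, fell from 8743 and 9273 to 1558 and 2172 (-2.29, adjusted p = 0.00325). LOX, the collagen cross-linking enzyme, fell from 78266 and 60540.3 to 8356 and 12211 (-2.77, adjusted p = 0.00363), and the glycolytic enzyme ENO1 fell from 70330.0 and 56379 to 21045 and 21574 (-1.56, adjusted p = 0.01). All 4 had treated libraries far below both controls. With the GC and length trend removed, 4 of the 19 were called lower, beside 6.43% of all genes.

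After MS-275, 0 of 20 tested were called, while 19 of 20 were higher within both replicate numbers, beside 38.6% of all genes, and the median was 0.85, beside -0.01. SLC2A1, the glucose transporter GLUT1, measured 5843 and 8115 in Control3 and 31892 and 49854 in MS-275, with groups far apart (2.53, limma adjusted p = 0.174). ALDOC, an aldolase, measured 1051 and 1274 against 3377 and 4887 (1.81, adjusted p = 0.234). After pyruvate, 3 of 19 were called higher and 7 lower, beside 31% and 23.1% of all genes, with a median of -0.55. With the trend removed 2 were called higher and 6 lower, beside 14.9% and 14.1%, with a median of -0.81. P4HA1 had the smallest adjusted p of the list and was higher (3.11, limma adjusted p = 1.14e-10). SLC2A1 fell from 37924 and 37358 to 11939 and 11935 (-1.66, adjusted p = 2.34e-10). PGK1 was lower (-1.40, adjusted p = 7.67e-10), and ADM fell from 15818 and 17530 to 4976 and 5047 (-1.73, adjusted p = 9.16e-10). With the trend removed P4HA1 was 1.52, SLC2A1 was -1.09 and PGK1 was -2.90, while ADM was -0.81, under the size required for a call.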
